A study of Mus musculus with 6 samples.

Results

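The genes described here build and run the DNA replication machinery. They were chosen by name: 49 genes whose products recognise origins, load and activate the replicative helicase, copy DNA at the fork, supply deoxynucleotides or package the copied DNA, out of 54532 genes in the deposited table. All 49 were found, each once. RNA was sequenced in 6 libraries from suspensions of mouse testis cells that carry the label STRA8+, STRA8 being a germ cell protein induced by retinoic acid before meiosis. The labels give 3 control libraries the genotype Cre and 3 knockout libraries the genotype of a conditional knockout, and give neither the deleted gene, the promoter that drives Cre, nor an age. The title of the study names BCAS2, a splicing factor, and hnRNPH1, an RNA-binding splicing regulator. Nothing in the labels says whether the 3 libraries of a group came from separate animals, so p-values measure only the spread between these libraries.

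Replication starts at origins bound by the origin recognition complex (ORC). CDC6 and CDT1 then load the ring-shaped MCM2-7 helicase in an inactive form, a step called licensing, which geminin blocks after S phase has begun. The kinase CDC7 with its partner DBF4 fires the origin, and CDC45 and the GINS complex join MCM2-7 to form the working helicase, known as CMG. Polymerase alpha with primase starts each strand, polymerases epsilon and delta extend it, and PCNA, loaded by the RFC complex, holds them on DNA. In the testis, spermatogonia pass through S phase at each mitotic division and once more just before meiosis, after which germ cells replicate no further.

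Many replication genes are known targets of the E2F transcription factors, which govern entry into S phase and bind short E2F sites, so the promoters of the MCM2-7 genes and of a polymerase pair with opposite changes are shown first. The sequences are RefSeq promoters of GRCm38.p6, the assembly called mm10 elsewhere, 250 bases before to 50 bases after an annotated start, written 5′ to 3′ on the gene's strand. Capitals mark matches to an E2F set (TTTGGCGC, TTTCCCGC, TTTCGCGC or TTTGCCGC) or to GGCGGGAA on either strand, and a capital run longer than 8 bases holds overlapping matches: of both kinds in Mcm3, Pold1 and Pold3, and of the E2F set on both strands in Mcm5 and Mcm6. Mcm7 has a pair of annotated starts. Mcm4 has no entry.
Mcm2, chr6:88898731-88899030 on the minus strand: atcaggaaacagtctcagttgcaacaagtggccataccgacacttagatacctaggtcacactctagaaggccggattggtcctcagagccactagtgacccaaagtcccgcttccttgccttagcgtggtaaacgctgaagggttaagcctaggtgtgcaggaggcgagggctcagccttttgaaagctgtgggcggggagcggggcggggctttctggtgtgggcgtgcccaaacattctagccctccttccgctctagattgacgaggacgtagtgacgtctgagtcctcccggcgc
Mcm3, chr1:20820263-20820562 on the minus strand: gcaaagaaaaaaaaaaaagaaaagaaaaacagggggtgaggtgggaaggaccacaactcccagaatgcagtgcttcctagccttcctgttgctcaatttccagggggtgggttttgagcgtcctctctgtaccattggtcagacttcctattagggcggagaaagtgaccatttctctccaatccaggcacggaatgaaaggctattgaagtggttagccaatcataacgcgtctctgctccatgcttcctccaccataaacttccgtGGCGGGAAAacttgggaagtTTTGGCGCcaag
Mcm5, chr8:75109259-75109558 on the plus strand: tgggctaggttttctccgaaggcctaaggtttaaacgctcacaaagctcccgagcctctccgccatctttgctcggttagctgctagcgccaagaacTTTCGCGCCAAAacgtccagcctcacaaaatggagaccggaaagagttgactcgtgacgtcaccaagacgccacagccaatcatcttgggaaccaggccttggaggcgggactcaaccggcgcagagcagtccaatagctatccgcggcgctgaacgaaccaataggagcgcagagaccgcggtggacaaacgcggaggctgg
Mcm6, chr1:128359656-128359955 on the minus strand: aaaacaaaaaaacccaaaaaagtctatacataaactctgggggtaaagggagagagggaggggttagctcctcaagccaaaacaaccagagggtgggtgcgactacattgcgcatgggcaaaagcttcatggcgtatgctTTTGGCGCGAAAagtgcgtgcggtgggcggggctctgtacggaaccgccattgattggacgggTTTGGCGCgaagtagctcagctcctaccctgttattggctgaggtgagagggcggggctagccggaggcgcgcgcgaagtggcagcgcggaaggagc
Mcm7 first start, chr5:138171834-138172133 on the minus strand: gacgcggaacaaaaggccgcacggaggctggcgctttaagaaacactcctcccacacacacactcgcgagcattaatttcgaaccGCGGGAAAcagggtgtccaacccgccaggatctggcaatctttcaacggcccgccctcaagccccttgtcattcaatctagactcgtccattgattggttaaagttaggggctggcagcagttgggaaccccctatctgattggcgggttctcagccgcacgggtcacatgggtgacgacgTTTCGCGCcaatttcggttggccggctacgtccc
Mcm7 second start, chr5:138171217-138171516 on the minus strand: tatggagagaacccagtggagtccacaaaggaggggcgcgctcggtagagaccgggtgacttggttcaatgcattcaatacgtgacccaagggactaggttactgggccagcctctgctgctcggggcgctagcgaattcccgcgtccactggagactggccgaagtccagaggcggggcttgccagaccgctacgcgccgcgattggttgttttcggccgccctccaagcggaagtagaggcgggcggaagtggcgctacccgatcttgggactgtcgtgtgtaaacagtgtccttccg
Pold1, chr7:44548766-44549065 on the minus strand: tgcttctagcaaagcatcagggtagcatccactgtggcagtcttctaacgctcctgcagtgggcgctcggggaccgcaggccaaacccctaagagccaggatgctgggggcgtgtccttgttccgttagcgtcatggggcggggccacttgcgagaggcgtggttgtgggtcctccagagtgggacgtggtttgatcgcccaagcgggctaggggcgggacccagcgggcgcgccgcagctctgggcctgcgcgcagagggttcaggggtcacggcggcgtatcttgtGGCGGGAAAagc
Pold3, chr7:100121453-100121752 on the minus strand: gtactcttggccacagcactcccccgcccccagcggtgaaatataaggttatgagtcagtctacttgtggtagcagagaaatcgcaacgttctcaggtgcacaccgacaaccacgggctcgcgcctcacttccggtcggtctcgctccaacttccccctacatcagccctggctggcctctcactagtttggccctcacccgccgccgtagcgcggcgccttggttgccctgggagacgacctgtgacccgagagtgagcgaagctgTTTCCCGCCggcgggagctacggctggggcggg

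In these windows Mcm6 holds matches that begin 110, 106 and 47 bases before its start, and Mcm5 holds an overlapping pair that begins 153 and 149 bases before its start. Mcm3 holds matches to the E2F set 19 and 38 bases after its start. Mcm2, which had the largest log2 fold change of the 49 genes on the deposited scale with 0.5 FPKM added, has no match in this window. Mcm7 and Pold3, both lower in the knockout on the deposited scale, hold matches as well: Mcm7 165 bases before and 16 bases after 1 of its starts, and Pold3 17 bases after its start. Of the 41 replication genes with a promoter entry, 16 hold a match to the E2F set, beside 2.26% of the 32851 promoters of the same length and 4.33% of the 11309 tested genes that have an entry. By call, these are 12 of 27 genes called higher, 2 of 6 called lower and 2 of 8 not called. The share of all tested genes was not split by call, and whether a match goes with a call was not tested. The 27 include Pola1, which holds a match, and Tk1 and Tyms, which hold none. These genes passed the expression filter given below only through the knockout. GGCGGGAA was found in 9 of the 41, beside 2.19% of all promoters and 4.46% of the tested genes. The other motifs searched, on both strands, were TTTGAA (the CHR element of genes of the later cell cycle) in 7 of the 41, CCAAT in 24 and CNCCTCAG (a motif bound by STRA8) in 4. Of all promoters these were held by 17.9%, 37.4% and 7.94%, and of the tested genes with an entry by 15.1%, 43.1% and 10.9%. A match describes letters only, and a window without one says nothing of a factor.

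The libraries held 14532453 to 16963019 reads in the controls against 14770320 to 15204127 in the knockout, recovered from the deposited FPKM (sequenced fragments for each kilobase of gene and each 1000000 fragments of library divisor). The authors' FPKM do not divide by these totals: the divisor was 0.691 to 0.774 times the total in the controls against 1.37 to 1.42 times in the knockout. Knockout values are therefore lower against control values on the deposited scale than shares of reads would be, and among the 16791 genes tested the middle log2 fold change was -0.41 on deposited FPKM, 0.71 with FPKM rescaled to sum to 1000000 in each library, 0.53 after quantile normalization and 0.46 with limma voom on the recovered reads. Each call on a replication or cell cycle gene was checked on these scales and on one with size factors recomputed over the genes tested. Those called the other way on rescaled FPKM are named. Calls of other genes, such as cell type markers and neighbouring genes, were made on the deposited scale only. Bcas2 stood at 19.8, 19.3 and 20.5 FPKM in the controls against 4.78, 4.38 and 5.40 FPKM in the knockout, with a log2 fold change of -1.93 (limma adjusted p = 7.6e-07), while Hnrnph1 was higher, with a mean of 63.8 against 140.1 FPKM and a log2 fold change of 1.13.

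Levels of cell type markers differed between the 2 groups on the deposited scale, and these values stand beside every result on replication genes. Stra8 itself stood at 11.5, 22.6 and 17.0 FPKM in the controls against 125.4, 136.8 and 136.2 FPKM in the knockout. Summed FPKM of 10 spermatid markers ran from 17902 to 20860 in the control libraries and from 4.50 to 8.43 in the knockout libraries, with all 10 called lower. Summed over 10 markers of pachytene and diplotene spermatocytes, the levels were 5301 to 6430 in the controls against 56.5 to 76.4 in the knockout, again with 10 of 10 lower. Markers of differentiating spermatogonia, a stage at which DNA is replicated, summed to 53.9 to 95.3 FPKM in the controls against 466.2 to 521.6 in the knockout, with 10 of 10 higher. Undifferentiated spermatogonia markers summed to 52.7 to 74.0 and 263.8 to 341.5 FPKM, with 6 higher and 2 lower of 9 tested and Nanos2 at 0 in all controls. Most of that sum was Uchl1, with means of 39.0 FPKM in the controls against 235.4 FPKM in the knockout. The 2 lower were Gfra1 (mean 2.04 against 0.749 FPKM) and Id4 (10.8 against 2.92 FPKM). Sertoli cell markers, somatic cells of the tubule, summed to 106.8 to 243.3 and 491.9 to 877.9 FPKM with 10 of 10 higher. Early prophase markers summed to 577.7 to 684.9 and 579.0 to 802.4 FPKM, with 4 higher and 3 lower of 10. The labels' extraction protocol speaks of retinas, but the 9 photoreceptor markers summed to 1.495 to 2.12 FPKM in the controls against 1.88 to 2.33 in the knockout, with Crx and Opn1sw at 0 in every library. In bulk samples fewer cells of a type and less RNA per cell cannot be told apart, and how much of each difference below goes with these cell types was not tested.

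**Figure D1:**
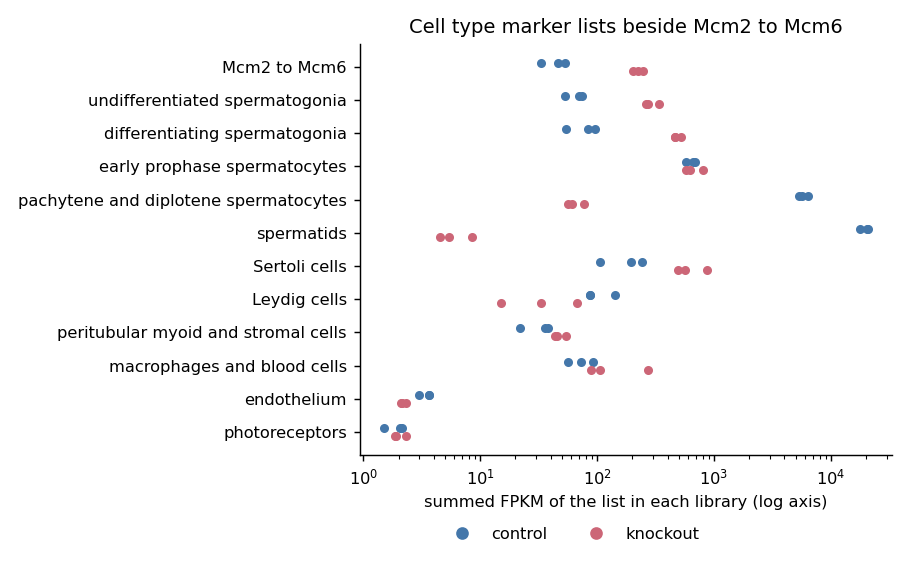
Summed FPKM of each marker list in each library (log axis), beside the sum of Mcm2 to Mcm6, with 1 point per library. The spermatogonia and Sertoli lists lie higher in the knockout, the pachytene and spermatid lists lie lower, and Mcm2 to Mcm6 rise from 33.1 to 52.8 FPKM in the controls to 203.1 to 247.7 FPKM in the knockout.

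Of the 49 replication genes, all of which averaged at least 1 FPKM across libraries and were tested, 29 rose, 8 fell and 12 did not pass an adjusted p of 0.05 with limma on log2(FPKM + 0.5). Among all genes tested 36.2% rose and 50.4% fell. Pola1, Tk1 and Tyms passed the filter only through the knockout, since their control means were under 1 FPKM, so that they had to differ; of the other 46 genes 26 rose. The median log2 fold change of the 49 was 0.77. On the rescaled FPKM 44 rose and 3 fell, beside 54.2% and 36.2% of all genes, with a median of 1.96, and on recovered reads 43 rose and 3 fell, beside 50.4% and 38.8%. The 29 genes that rose did so on each of the 4 other scales. Of the 8 that fell, Pold3, Rfc2 and Chaf1a fell on each of them, while Mcm7, Mcm9, Orc5, Gins4 and Rfc1 did not. The 12 genes not called as deposited were all called higher on rescaled FPKM, with log2 fold changes from 0.69 for Fen1 to 1.40 for Orc3. Of these 12, 11 were called higher after quantile normalization (all but Gins1) and 11 on recovered reads (all but Fen1), and none with the recomputed size factors. Intervals given below for these genes are on the deposited scale and do not cover that choice. Reads of the 49 genes made up 0.225% ± 0.0111 (SD, n = 3) of all reads in the controls against 0.573% ± 0.0483 (SD, n = 3) in the knockout.

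**Figure D2:**
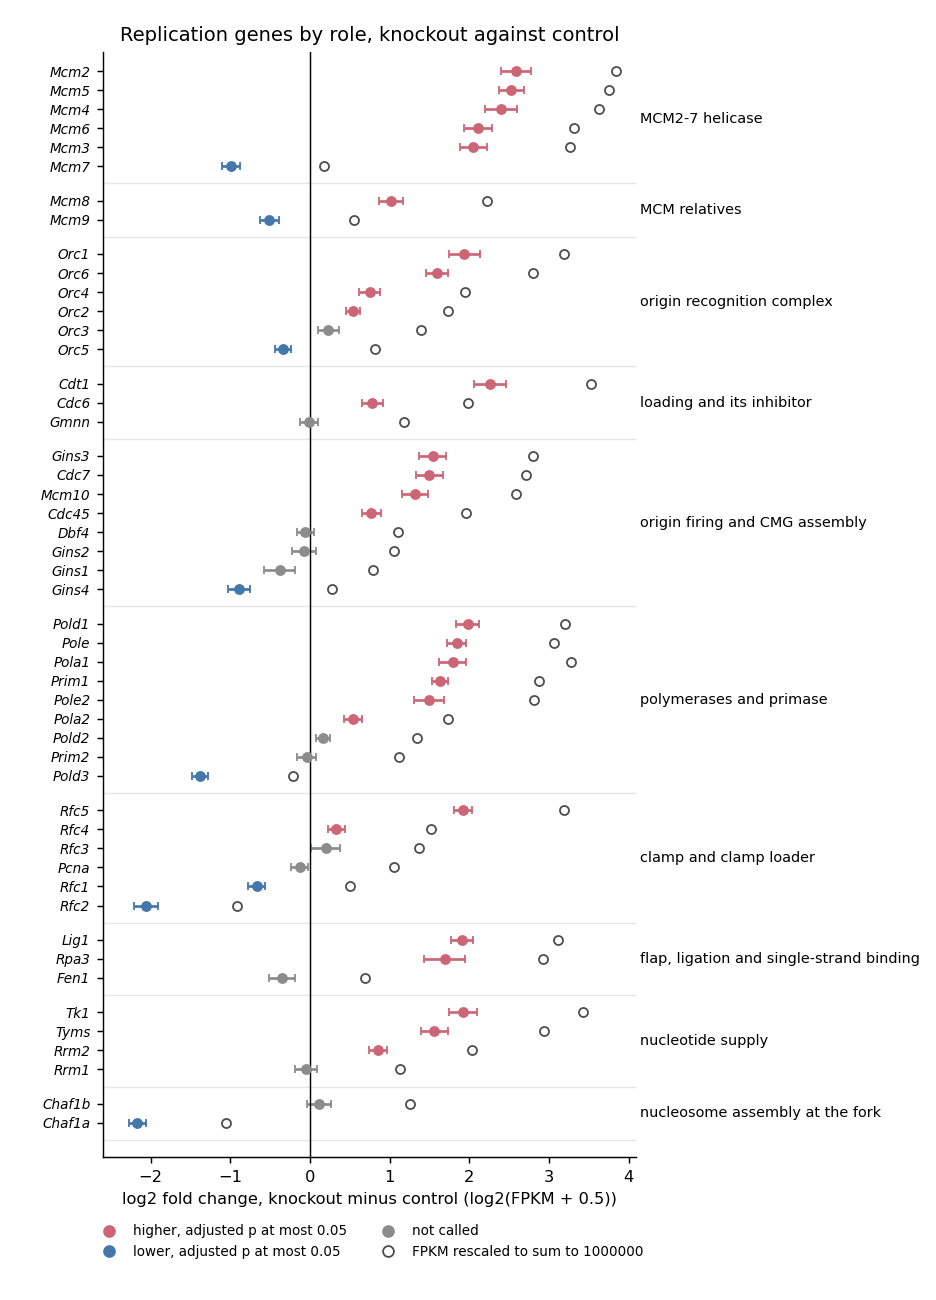
Log2 fold change of each replication gene, knockout minus control, grouped by role. Filled points with bars are the limma estimate ± SE on deposited FPKM, coloured by call, and open circles are the same gene with FPKM rescaled to sum to 1000000, which lie to the right by about the shift between the scales. Filled points run from -2.17 for Chaf1a to 2.59 for Mcm2.

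The MCM2-7 helicase showed 5 subunits higher and 1 lower, beside 36.2% and 50.4% of all genes tested. Mcm2 (ENSMUSG00000002870, chromosome 6, 88883474 to 88898780 in mm10) stood at 3.47, 5.85 and 5.44 FPKM in the controls against 29.2, 29.6 and 36.2 FPKM in the knockout. Each knockout library lay above each control, by 6.44-fold between the means, and the log2 fold change was 2.59 ± 0.189 (SE, limma adjusted p = 4.4e-06). Mcm5 stood at 7.43, 11.3 and 11.2 FPKM against 56.6, 62.8 and 58.5 FPKM, a 5.93-fold difference between the means. Mcm4, Mcm6 and Mcm3 were 5.53-fold, 4.39-fold and 4.26-fold higher, and in each of the 5 genes the lowest control was replicate 1 and the lowest knockout was replicate 1. Replicate 1 was also the control with the least of the spermatogonia markers, and leaving it out changed none of the 49 calls. Mcm2 to Mcm6 together summed to 33.1, 52.8 and 46.3 FPKM in the controls against 203.1, 224.9 and 247.7 FPKM in the knockout.

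Mcm7, which encodes the sixth ring subunit, went the other way on the deposited scale. The gene (ENSMUSG00000029730) lies on chromosome 5 at 138164583 to 138172422. Its level was 67.4, 57.6 and 65.5 FPKM in the controls against 27.4, 33.6 and 34.3 FPKM in the knockout. All knockout libraries lay below all controls, with a log2 fold change of -0.99 ± 0.116 (SE, limma adjusted p = 7.1e-05). That direction depends on the scale, since the log2 fold change was 0.18 on rescaled FPKM, 0.37 after quantile normalization and -0.08 on recovered reads. The proportion between subunits in a library is the same on any scale that divides a library by 1 factor, which quantile normalization does not. Mcm7 made up 67.1%, 52.2% and 58.6% of the summed FPKM of the 6 subunits in the controls against 11.9%, 13% and 12.2% in the knockout. It was thus the most abundant subunit transcript per length in every control library and, with Mcm2, among the least abundant in the knockout. Mcm5 moved from 9.23% ± 1.58 to 23.2% ± 2.13 of the sum (SD, n = 3) and Mcm6 from 12.1% ± 2.40 to 22.3% ± 0.423. The sequences of the 2 Mcm7 starts are printed above, and the gene values do not separate them. Mcm7 also shares 7.25% of its exon bases with Ap4m1 and 1.45% with Cops6 on the other strand, and contains the microRNA genes Mir25 and Mir93.

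**Figure D3:**
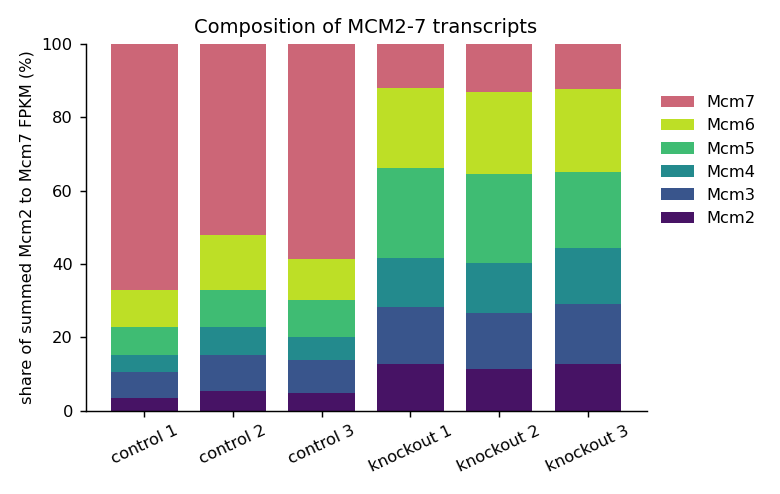
Share of each subunit in the summed FPKM of Mcm2 to Mcm7, with 1 bar per library. Mcm7 takes 52.2% to 67.1% of the sum in the controls against 11.9% to 13% in the knockout.

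A total of 28 such within-library values were compared (6 subunit shares and 22 ratios of partner genes), each with a two-sided exact permutation test of 3 against 3 libraries, whose smallest possible p is 0.1. The 6 shares and 20 of the ratios reached it (exact permutation p = 0.1, adjusted p = 0.11), so none could pass 0.05. Of these 20, Pola2 over Pola1 and Rrm2b over Rrm2 each hold a gene that passed the filter only through the knockout. The separation of these ratios was thus favoured in advance. For reading them, the same separation of the groups was found for 83.7% of all pairs of tested genes with reads in every library, so separation alone does not set these pairs apart. Gins1 over Gins2 and Pole2 over Pole overlapped between the groups.

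The MCM relatives MCM8 and MCM9 form a complex of their own that acts in homologous recombination and is needed for fertility. Mcm8 stood at 7.37, 8.72 and 7.16 FPKM in the controls against 13.2, 18.3 and 17.5 FPKM in the knockout, all above the controls, with a log2 fold change of 1.02 ± 0.148 (SE, limma adjusted p = 2.7e-04). Mcm9 stood at 3.28, 3.07 and 3.15 FPKM and at 2.15, 2.13 and 1.96 FPKM, all below the controls. Its log2 fold change of -0.51 (limma adjusted p = 0.0043) turned to 0.55 on rescaled FPKM. Mcm8 over Mcm9 was 2.45 ± 0.334 in the controls against 7.88 ± 1.54 in the knockout (SD, n = 3). Mcm9 shares 19.2% of its exon bases with Asf1a on the other strand, and strand use in counting is not given in the sources used here; its reads and those of Asf1a may be mixed.

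Of the origin recognition complex, Orc1, Orc6, Orc4 and Orc2 rose, Orc3 was not called and Orc5 was lower on the deposited scale. Among all genes tested 36.2% rose and 50.4% fell on that scale. Orc1, the subunit that leaves and returns within the cell cycle, stood at 2.83, 4.90 and 4.25 FPKM in the controls against 14.04, 17.5 and 18.1 FPKM in the knockout. The knockout libraries were all higher, by 4.14-fold between means, with a log2 fold change of 1.94 ± 0.193 (SE, limma adjusted p = 2.7e-05). Orc6, the smallest and most loosely bound subunit, was 3.10-fold higher. Orc4 and Orc2, subunits of the stable core, were 1.76-fold and 1.47-fold higher.

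Orc3, another core subunit, stood at 10.5, 10.4 and 9.29 FPKM in the controls against 9.89, 13.4 and 12.6 FPKM in the knockout. The groups overlapped through knockout 1, and the log2 fold change was 0.23 with a 95% interval of -0.08 to 0.53, and 1.40 on rescaled FPKM. With knockout 1 left out, Orc3 was called higher on the deposited scale (0.35). Orc5 stood at 10.4, 10.2 and 9.49 FPKM against 7.24, 8.62 and 7.72 FPKM, with every knockout library lower. The log2 fold change of Orc5 was -0.34 (limma adjusted p = 0.016). It lost its call without knockout 1 (-0.28) or knockout 3 (-0.33) and turned to 0.82 on rescaled FPKM. Against Orc2 in the same library, Orc1 rose from 0.269 ± 0.0735 to 0.753 ± 0.0443 and Orc6 from 0.554 ± 0.107 to 1.17 ± 0.0534 (SD, n = 3). Orc5 over Orc2 moved from 0.676 ± 0.0342 to 0.359 ± 0.0177 and Orc3 over Orc2 from 0.680 ± 0.0487 to 0.545 ± 0.0423. Orc2 shares 29.8% of its exon bases with Nif3l1 on the other strand, which had a log2 fold change of 1.31.

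Of the loading factors, Cdt1 and Cdc6 rose and their inhibitor was not called. Cdt1, which brings MCM2-7 to ORC, stood at 2.13, 3.20 and 3.54 FPKM in the controls against 13.9, 14.3 and 19.5 FPKM in the knockout. The knockout libraries were all above the controls, by 5.38-fold between means, with a log2 fold change of 2.26 ± 0.199 (SE, limma adjusted p = 1.4e-05). Cdc6, the ATPase that works with ORC, was 1.81-fold higher. Gmnn, which encodes geminin, the protein that holds CDT1 inactive, stood at 37.5, 35.0 and 43.1 FPKM and at 34.1, 40.5 and 40.4 FPKM. The groups overlapped, with a log2 fold change of -0.01 and a 95% interval of -0.27 to 0.26 on the deposited scale, and 1.18 on rescaled FPKM. Gmnn over Cdt1 was 17.7, 10.9 and 12.2 in the controls against 2.45, 2.83 and 2.07 in the knockout. Transcripts of the inhibitor thus outnumbered those of its target per length in all 6 libraries, by less in the knockout. Cdc6 over Orc1 moved from 1.07 ± 0.296 to 0.445 ± 0.00901 (SD, n = 3).

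**Figure D4:**
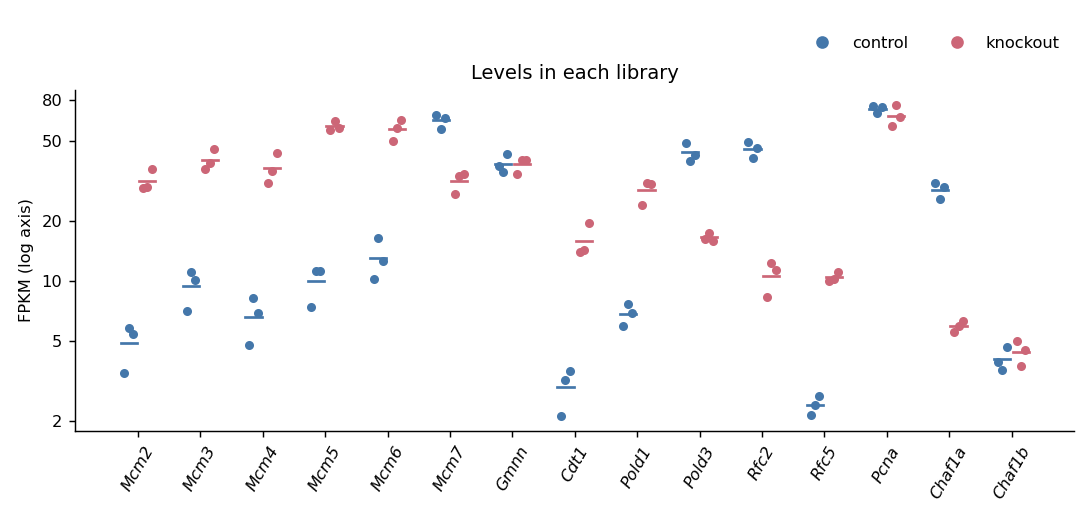
FPKM of 15 replication genes in each library (log axis), with 1 point per library and a bar at the group mean. Mcm2 to Mcm6, Cdt1, Pold1 and Rfc5 lie higher in the knockout, Mcm7, Pold3, Rfc2 and Chaf1a lie lower on this scale, and Gmnn, Pcna and Chaf1b overlap.

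Among the 8 genes of origin firing, 4 rose, 1 fell and 3 were not called, where 36.2% of all genes tested rose and 50.4% fell. Gins3 stood at 2.21, 1.88 and 3.18 FPKM in the controls against 7.37, 8.19 and 8.09 FPKM in the knockout, all above the controls. Its log2 fold change was 1.54 ± 0.172 (SE, limma adjusted p = 5.5e-05). Gins4, another of the 4 GINS subunits, stood at 51.9, 46.2 and 39.4 FPKM against 20.6, 25.3 and 27.4 FPKM, all below the controls. Its log2 fold change was -0.89 ± 0.141 (SE, limma adjusted p = 4.5e-04) on the deposited scale, 0.28 on rescaled FPKM and 0.01 on recovered reads. Gins3 over Gins4 was 0.0425, 0.0408 and 0.0807 in the controls against 0.358, 0.324 and 0.296 in the knockout, a shift that no single factor per library alters.

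The remaining GINS subunits were not called. Gins1 stood at 12.2, 13.8 and 19.9 FPKM in the controls against 9.57, 13.1 and 11.9 FPKM in the knockout, with overlapping groups and a log2 fold change of -0.38 (95% interval -0.83 to 0.07), and 0.79 on rescaled FPKM. Gins2 stood at 4.79, 5.48 and 5.17 FPKM against 4.30, 6.04 and 4.30 FPKM, with overlapping groups and a log2 fold change of -0.08 (95% interval -0.44 to 0.27), and 1.06 on rescaled FPKM. Gins2 is uncertain, since 67.3% of its exon bases lie in exons of Gse1 on the other strand, which had a log2 fold change of 1.995. Gins1 over Gins2 was 2.97 ± 0.760 and 2.39 ± 0.327 (SD, n = 3), with overlap (exact permutation p = 0.3).

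Cdc7, the kinase that fires origins, rose 2.93-fold, while Dbf4, its activating partner, stood at 15.3, 14.9 and 13.6 FPKM in the controls against 12.5, 15.1 and 14.4 FPKM in the knockout. The Dbf4 groups overlapped, with a log2 fold change of -0.06 (95% interval -0.31 to 0.19), and 1.11 on rescaled FPKM. Cdc7 over Dbf4 was 0.446, 0.654 and 0.602 in the controls against 1.58, 1.80 and 1.77 in the knockout, so the kinase transcript went from the scarcer to the more abundant of the pair per length. Mcm10, which helps the assembled helicase to open DNA, rose 2.98-fold from a low level of 1.55 ± 0.294 FPKM (SD, n = 3). Cdc45, the helicase's partner, was 1.73-fold higher, the smallest rise among the genes of origin firing, with 12.8, 16.3 and 14.7 FPKM against 22.4, 26.8 and 26.6 FPKM and no overlap.

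Of the 9 polymerase and primase genes, 6 rose, 1 fell and 2 were not called, where 36.2% of all genes tested rose and 50.4% fell. The 6 include Pola1, which passed the filter only through the knockout and so had to differ. Pold1, the catalytic subunit of polymerase delta, stood at 5.95, 7.72 and 6.93 FPKM in the controls against 23.9, 31.1 and 30.6 FPKM in the knockout. All knockout libraries were higher, with a log2 fold change of 1.98 ± 0.141 (SE, limma adjusted p = 3.9e-06). Pold3 (ENSMUSG00000030726, chromosome 7, 100082111 to 100121565), an accessory subunit of the same enzyme that also serves polymerase zeta, stood at 49.2, 39.8 and 42.8 FPKM against 16.3, 17.4 and 15.9 FPKM. All knockout libraries were lower, with a log2 fold change of -1.38 ± 0.103 (SE, limma adjusted p = 5.0e-06), and the direction held on rescaled FPKM (-0.21), after quantile normalization (-0.33) and on recovered reads (-0.48). Pold3 over Pold1 was 8.27, 5.16 and 6.17 in the controls against 0.683, 0.559 and 0.520 in the knockout, a log2 difference of -3.46. Both promoters printed above hold the overlapping E2F and GGCGGGAA match shortly after the start. Whether the match bears on the level of either gene was not tested.

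Pold2, the second subunit of polymerase delta, stood at 16.7, 16.8 and 17.9 FPKM in the controls against 19.4, 18.0 and 20.2 FPKM in the knockout. The knockout libraries were slightly higher in each case, but the log2 fold change of 0.16 (95% interval -0.04 to 0.37) was not called, and it was 1.34 on rescaled FPKM. Pole, the catalytic subunit of polymerase epsilon, rose 3.76-fold and its partner Pole2 3.69-fold. Their ratio was 0.126 ± 0.0131 in the controls against 0.122 ± 0.0180 in the knockout (SD, n = 3, exact permutation p = 0.8). Pole over Pold1, the pair that makes most of the leading and the lagging strand, was 1.30 ± 0.0933 and 1.17 ± 0.0257 (SD, n = 3), a log2 difference of -0.15.

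Polymerase alpha with primase showed unequal changes among its subunits. Pola1, its catalytic subunit on the X chromosome, was listed at 0.294, 0.475 and 0.461 FPKM in the controls against 2.22, 2.94 and 2.79 FPKM in the knockout. These values rest on 26, 55 and 50 reads in the controls against 424, 524 and 510 reads in the knockout. The means differed 6.47-fold, and the log2 fold change with 0.5 FPKM added, which understates a change at this level, was 1.79 ± 0.175 (SE). Pola2, its accessory subunit, was 1.47-fold higher, with 11.7, 12.7 and 10.2 FPKM against 15.4, 18.2 and 17.3 FPKM and no overlap. Pola2 over Pola1 fell from 29.6 ± 9.04 to 6.44 ± 0.435 (SD, n = 3). Prim1, the primase that makes the RNA primer, was 3.37-fold higher. Prim2, its partner, stood at 8.76, 7.64 and 7.64 FPKM and at 6.84, 8.42 and 8.14 FPKM, with overlapping groups and a log2 fold change of -0.04 (95% interval -0.32 to 0.24), and 1.12 on rescaled FPKM. Prim2 over Prim1 moved from 1.99 ± 0.121 to 0.575 ± 0.0573 (SD, n = 3).

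**Figure D5:**
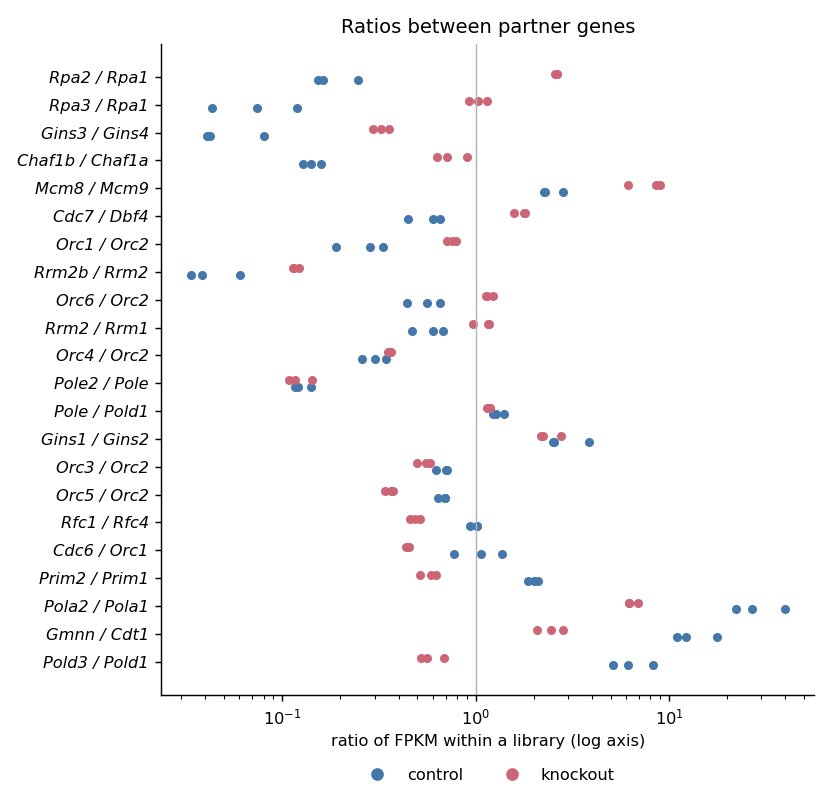
Ratio of FPKM between partner genes within each library (log axis), with 1 point per library. Rpa2 over Rpa1 moves from 0.153 to 0.247 in the controls to 2.56 to 2.64 in the knockout, Pold3 over Pold1 moves the other way, and Pole2 over Pole and Gins1 over Gins2 overlap.

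The clamp and its loader gave 2 genes higher, 2 lower and 2 not called, beside 36.2% higher and 50.4% lower of all genes tested. The share called higher was near that of all genes. The median log2 fold change was 0.04, beside -0.41 for all genes tested. Pcna, the sliding clamp, had the highest control mean of all 49 genes at 72.8 ± 3.06 FPKM (SD, n = 3). It stood at 74.7, 69.3 and 74.4 FPKM in the controls against 59.4, 75.8 and 65.7 FPKM in the knockout, with overlap and a log2 fold change of -0.13 (95% interval -0.37 to 0.12), and 1.06 on rescaled FPKM. The copy Pcna-ps2 was listed at 0.662 to 1.51 FPKM, and how reads that fit both were counted is not known here.

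The RFC subunits, which open PCNA and place it on DNA, did not move together. Rfc5 stood at 2.16, 2.41 and 2.66 FPKM in the controls against 10.1, 10.3 and 11.1 FPKM in the knockout, all above the controls. Its log2 fold change was 1.92 ± 0.115 (SE, limma adjusted p = 1.4e-06). Rfc5 shares 10.7% of its exon bases with Wsb2 on the other strand, so its level is uncertain. Wsb2 stood at a mean of 6.44 FPKM in the controls against 11.2 FPKM in the knockout. Rfc2 (ENSMUSG00000023104, chromosome 5, 134581366 to 134601805) stood at 49.3, 41.3 and 46.4 FPKM against 8.37, 12.3 and 11.3 FPKM, all below the controls. Its log2 fold change was -2.06 ± 0.149 (SE, limma adjusted p = 4.2e-06), and it fell on each of the 4 other scales, by 0.92 on the log2 scale with rescaled FPKM. Rfc2 shares 15.1% of its exon bases with Lat2 on the other strand, which was at 2.45 FPKM in the controls, so Lat2 is small beside it.

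Rfc1, the large subunit, stood at 40.0, 33.2 and 39.8 FPKM in the controls against 21.7, 23.6 and 24.9 FPKM in the knockout, all lower, with a log2 fold change of -0.67 (limma adjusted p = 4.4e-04) that turned to 0.50 on rescaled FPKM. Rfc4 was 1.27-fold higher, with a log2 fold change of 0.33 (limma adjusted p = 0.017), and lost its call without control 2 (0.29), knockout 2 (0.28) or knockout 3 (0.29). Rfc4 shares 12.65% of its exon bases with Eif4a2 on the other strand, at a mean of 46.6 FPKM in the controls against 39.7 FPKM in the knockout. Rfc3 stood at 5.77, 5.31 and 5.26 FPKM against 4.62, 7.64 and 7.13 FPKM. The Rfc3 groups overlapped through knockout 1, with a log2 fold change of 0.20 (95% interval -0.22 to 0.62), and 1.37 on rescaled FPKM. With knockout 1 left out, Rfc3 was called higher on the deposited scale (0.41). Rfc1 over Rfc4 moved from 0.991 ± 0.0518 to 0.488 ± 0.0285 (SD, n = 3).

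Of the genes that finish lagging-strand fragments or bind single strands, Lig1 and Rpa3 rose. Lig1, the ligase that seals the fragments, stood at 9.06, 12.6 and 12.9 FPKM in the controls against 41.5, 44.8 and 46.2 FPKM in the knockout, all higher, with a log2 fold change of 1.91 ± 0.142 (SE, limma adjusted p = 5.0e-06). Rpa3, the smallest subunit of the single-strand binding protein RPA, was 3.36-fold higher. Fen1, the nuclease that removes the displaced flap, stood at 2.26, 1.82 and 2.68 FPKM and at 1.49, 1.61 and 1.85 FPKM. These groups overlapped narrowly, with a log2 fold change of -0.35 (95% interval -0.73 to 0.04), and 0.69 on rescaled FPKM. With control 2 left out, Fen1 was called lower on the deposited scale (-0.47). Fen1 is uncertain because 78.8% of its exon bases lie in the antisense gene Gm10143, itself at 0.176 FPKM in the controls against 0.948 FPKM in the knockout. It also shares 5.37% of its exon bases with the more abundant Tmem258 on the other strand. Tmem258 stood at a mean of 31.6 FPKM in the controls against 16.9 FPKM in the knockout. How many of the Fen1 reads came from Tmem258 was not tested.

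RPA works as a trimer, and its other subunits were read for comparison. Rpa1, the large subunit, stood at 70.5, 55.9 and 68.3 FPKM in the controls against 14.1, 16.7 and 17.2 FPKM in the knockout, all lower, with a log2 fold change of -1.99 (limma adjusted p = 1.6e-06) that kept its sign and call on rescaled FPKM (-0.83). Rpa2 had a log2 fold change of 1.77. Rpa3 over Rpa1 was 0.0436, 0.120 and 0.0743 in the controls against 0.927, 1.15 and 1.03 in the knockout. Rpa2 over Rpa1 was 0.153, 0.247 and 0.163 against 2.64, 2.63 and 2.56. These ratios to Rpa1 showed the largest log2 differences of the 28 values, 3.82 and 3.83.

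Nucleotide supply showed 3 genes higher and 1 not called, where 36.2% of all genes tested rose. Of the 3, Tk1 and Tyms passed the filter only through the knockout, so that they had to differ. Tk1, which salvages thymidine, was listed at 0.326, 0.425 and 0.469 FPKM in the controls against 2.40, 3.36 and 3.09 FPKM in the knockout, from 17, 29 and 30 reads against 270, 353 and 333. The means differed 7.26-fold, with a log2 fold change of 1.92 ± 0.173 (SE). As for Pola1, no p-value of the fold change is given, since the gene passed the filter through the knockout. Tyms, which makes thymidylate, was 4.32-fold higher from 39, 73 and 43 control reads. Rrm2, the subunit of ribonucleotide reductase made in S phase, was 1.84-fold higher, while its partner Rrm1 stood at 19.9, 17.3 and 22.3 FPKM against 16.4, 20.3 and 20.8 FPKM. The Rrm1 groups overlapped, with a log2 fold change of -0.05 (95% interval -0.36 to 0.26), and 1.13 on rescaled FPKM. Rrm2 over Rrm1 moved from 0.583 ± 0.107 to 1.10 ± 0.113, and Rrm2b, the form of the subunit made outside S phase, over Rrm2 from 0.0443 ± 0.0145 to 0.117 ± 0.00487 (SD, n = 3).

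The CAF-1 complex places histones on copied DNA, and its subunits diverged. Chaf1a (ENSMUSG00000002835, chromosome 17, 56040439 to 56072289) stood at 30.8, 25.6 and 29.5 FPKM in the controls against 5.55, 5.98 and 6.35 FPKM in the knockout, all lower. Its log2 fold change of -2.17 ± 0.107 (SE, limma adjusted p = 4.1e-07) was the lowest of the 49 genes, and it fell by 1.06 on the log2 scale with rescaled FPKM. This value is uncertain, because 52.5% of the exon bases of Chaf1a lie in exons of Ubxn6 on the other strand, which stood at 35.9 FPKM in the controls against 3.19 FPKM in the knockout (log2 fold change -3.30). Chaf1b stood at 3.96, 3.59 and 4.68 FPKM against 5.03, 3.77 and 4.53 FPKM, with overlap and a log2 fold change of 0.11 (95% interval -0.24 to 0.46), and 1.26 on rescaled FPKM. Chaf1b over Chaf1a was 0.129, 0.140 and 0.158 in the controls against 0.907, 0.630 and 0.713 in the knockout.

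The knockout libraries also differed among themselves. Of the 29 replication genes that rose, knockout 1 was the lowest knockout library in 28, beside 44.7% of the 6075 genes of the whole table that rose. Control 1 was the lowest control in 18 of the 29, beside 71.1% of the genes that rose. Knockout 1 held the most of the Sertoli markers (877.9 FPKM, against 569.7 and 491.9) and of the macrophage and blood markers (272.5 FPKM, against 88.0 and 106.3). Whether those cells bear on the levels was not tested. Without knockout 1, no gene that rose lost its call.

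Beyond the 49 genes, 85 other genes of replication, nucleotide supply, chromatin at the fork and S-phase entry were tested, of which 51 rose and 19 fell, beside 36.2% and 50.4% of all genes tested, with a median log2 fold change of 0.74. On rescaled FPKM 73 rose and 8 fell, beside 54.2% and 36.2%. Of the 85, Rrm2b, Dctd and E2f3 passed the filter only through the knockout, so that they had to differ, and the 51 include them. The largest rises were those of Cdca7, which works with the chromatin remodeller HELLS (5.66 ± 1.57 to 32.9 ± 4.90 FPKM, log2 fold change 2.47), Dck, which salvages deoxycytidine (3.72 ± 1.61 to 21.2 ± 2.93 FPKM, 2.43), and Mcmbp, which binds MCM subunits (6.53 ± 1.64 to 36.4 ± 3.10 FPKM, 2.42; SD, n = 3 for each). Other fork and origin proteins gave 18 higher and 8 lower of 30, nucleotide enzymes 8 and 1 of 11, chromatin genes 9 and 2 of 14 and regulators of S-phase entry 16 and 8 of 30. E2f1, an activator of S-phase genes, had a log2 fold change of 2.37.

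Of the 19 that fell, 8 fell on the rescaled FPKM too: Rpa1, Donson, Rnaseh2a, Lrwd1, Nasp, Rbl2, Ccna1 and Skp2. Ccna1, the cyclin A of meiosis and also a marker in the pachytene list above, stood at 151.7, 108.4 and 125.0 FPKM in the controls against 0.504, 0.889 and 0.789 FPKM in the knockout, while Ccna2, the cyclin A of dividing cells, had a log2 fold change of 2.16. Rnaseh2a, the catalytic subunit of the nuclease that removes ribonucleotides from DNA, stood at 216.4, 172.8 and 186.1 FPKM against 8.48, 7.72 and 9.36 FPKM, a log2 fold change of -4.41 (limma adjusted p = 1.0e-08). Its partner Rnaseh2b had a log2 fold change of 1.35 and Rnaseh2c one of -0.21 that was not called. Nasp, a histone chaperone with a testis form, stood at 259.8, 216.8 and 249.9 FPKM against 56.0, 64.0 and 59.9 FPKM. Lrwd1, which binds ORC, had a log2 fold change of -2.56, Skp2, which marks CDT1 and other proteins for degradation, -2.27, Rbl2, a relative of RB1, -1.93, and Donson, a factor of origin firing, -1.71.

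The other 11 that fell as deposited were not called lower on rescaled FPKM. They were Pold4, Pole3, Mtbp, Dscc1, Tk2, Asf1a, E2f8, Mybl1, Cdc25a, Cul4a and Ddb1, with log2 fold changes from -1.26 for E2f8 to -0.32 for Mtbp and Tk2. Of these, Pole3, Mtbp, Tk2, Asf1a, Cdc25a, Cul4a and Ddb1 were called higher on rescaled FPKM. E2f8 (-0.32), Dscc1 (-0.09) and Mybl1 (-0.02) kept their sign there without a call. E2f8 and Mybl1 were called lower after quantile normalization and on recovered reads.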

How the data were processed

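Messenger RNA was measured in 6 libraries, 3 control and 3 knockout, grouped by their titles. Per the submitters' processing notes, HISAT2 2.0.5 placed reads on mm10. How reads were counted, with which annotation and strand setting, is not given in the sources used here. Values of overlapping genes and copies are uncertain for that reason. The authors deposited FPKM for 54532 genes. Scaled by gene length, FPKM came out as whole reads for 100% of nonzero values (within 0.01 read), from which reads and library totals were recovered. Each library's divisor matched its median-of-ratios size factor (19526 genes with reads everywhere) multiplied by the totals' geometric mean.

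The 16791 genes averaging at least 1 FPKM were tested by knockout minus control on log2(FPKM + 0.5) using limma 3.58.1 (R 4.3.3) with moderated variances, a trend and Benjamini-Hochberg adjustment at 0.05. Ratios within libraries were tested by exact permutation with scipy 1.17.1. The limma script was tested on simulated data. Alternatives were other pseudocounts, filters and scalings, limma voom on recovered reads, no trend, the replicate block and leaving out each library. Of the 49 replication genes, 48 had the coordinates and exon length of GENCODE M21, from which overlaps come (Pola2 did not). RefSeq promoters were matched by symbol for 41 genes; Mcm4, Gmnn, Gins1, Gins2, Gins4, Prim2, Pole and Rfc2 had none.

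In each of 10 role groups, library values are given for the largest and the smallest fold change and for every gene called lower or not called. Of the other pathway genes, the 3 largest rises and every gene called lower are named; others named were chosen after their values were seen. The genes and lists were chosen with earlier results of these data known.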

Additional observations from a re-analysis of the deposited data

How the results depend on the processing

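Scaling moved the calls most. Of the 49 replication genes, 44 rose with FPKM rescaled to sum to 1000000 and 44 after quantile normalization, against 29 as deposited, and 3 fell under rescaling, quantile normalization and limma voom on recovered reads, against 8. Their median log2 fold change was 1.96 under rescaling, 1.73 with voom and 1.66 after quantile normalization, against 0.77. Other replication genes called lower numbered 8 under rescaling, 10 with voom and 10 after quantile normalization, against 19. These shifts go with the scales' own shift of the median gene. In the order rescaled, voom and quantile, the log2 fold change turned to 0.55, 0.31 and 0.29 for Mcm9, 0.82, 0.56 and 0.31 for Orc5, 0.28, 0.01 and 0.30 for Gins4 and 0.50, 0.24 and 0.46 for Rfc1. Mcm7 turned to 0.18 when rescaled and 0.37 after quantile normalization. A filter at 5 FPKM left 3227 genes higher and 5320 lower, since fewer were tested. Leaving out 1 library at a time gave 28 to 31 replication genes higher and 7 to 9 lower. Numbers shared by control and knockout libraries did not pair them (correlations of -0.12, -0.05 and -0.04), and a replicate block left 29 higher and 8 lower. Pseudocounts of 0.1 and 1, no filter and no trend changed none of the 49 calls. With 0.5 FPKM added, 3 log2 ratio differences moved: Pola2 over Pola1 to -1.25, Pole2 over Pole to -0.35 and Rrm2b over Rrm2 to 0.71. Control reads of Pola1, Tk1 and Tyms were few, which limits the precision of their folds.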

Other observations

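Genes of the G2 and M phases, which follow S phase, were read beside the replication genes. Of 16 tested, 5 rose and 10 fell, with a median log2 fold change of -0.50, beside 36.2% and 50.4% of all genes tested and their median of -0.41, so that the list as a whole lay near the background. On rescaled FPKM 11 rose and 3 fell, beside 54.2% and 36.2%. Mki67, a marker of dividing cells, had a log2 fold change of 1.97. Aurka, a spindle kinase, stood at a mean of 106.8 FPKM in the controls against 15.2 FPKM in the knockout (log2 fold change -2.77), and Ccnb2, a mitotic cyclin, at 165.7 and 29.1 FPKM (-2.49). Aurka, Ccnb2 and Plk1 (-1.75) fell on rescaled FPKM as well. Birc5 (-0.77), Cenpe (-0.76), Cdc20 (-0.56), Bub1b (-0.43) and Ccnb1 (-0.35) turned and were called higher on rescaled FPKM. Foxm1 (-1.40) and Ttk (-0.83) were not called there, at -0.24 and 0.33. Foxm1 was called lower after quantile normalization (-0.29) and on recovered reads (-0.50).

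Several replication genes start close to a gene on the other strand. Of 11 such neighbours that were tested, 4 were called higher and 4 lower on the deposited scale, beside 36.2% and 50.4% of all genes tested. The share called higher was thus near that of all genes. Mcm8 lies 86 bases from the start of Trmt6, whose log2 fold change was 1.80, Pole lies 120 bases from Pxmp2, at 1.69, and Mcm4 lies 466 bases from Prkdc, at 1.14. Slc25a40, at 1.07, starts 134 bases from Dbf4, which was not called. The neighbours called lower were Ufd1 beside Cdc45 (-0.95 as deposited and 0.21 when rescaled), Tmem258 beside Fen1 (-0.88 and 0.29), Prpf38a beside Orc1 (-0.46 and 0.69) and Umad1 beside Rpa3 (-0.43 and 0.60), so their direction depends on the scale. Vps35 beside Orc6 (-0.41), Abhd12 beside Gins1 (-0.23) and Rars2 beside Orc3 (-0.17) were not called.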
